A study of Mus musculus with 3 samples.

Results

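The comparison described here set mouse aortic endothelial cells (MAECs) given glucose oxidase alone against untreated control cells, and took in 2 of the 3 libraries of the study. MAECs are cells of the inner lining of the aorta, here a culture bought from a supplier and grown in its own complete medium. The labels give tissue, cell type and treatment, with no strain, age or sex. The control library came from cells without treatment, and the other from cells exposed to glucose oxidase at 5 mU/mL for 30 min. The labels do not state how long after the exposure the RNA was taken. The third library of the study received glucose oxidase together with 0.2 mM ethyl-2-hydroxybenzylamine (24 h), a scavenger of reactive lipids. It entered only the scaling of the libraries and a few reference values below. All 18287 genes with a value in both libraries were compared. Of these, 13285 are protein-coding, 2110 are processed pseudogenes (intronless copies of spliced transcripts) and 2892 belong to 19 other biotypes; protein-coding genes and processed pseudogenes are described apart.

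Each group had 1 library, so the spread between replicates is unknown and conditions could not be tested against each other. Values are reads per gene in each library. Log2 ratios are those of normalized count plus 10, glucose oxidase over control, which understates differences of genes with few reads. A gene is called higher or lower when this ratio reached 1 or -1. Fold differences use normalized counts without the added 10, and their 95% intervals (exact Clopper-Pearson) cover counting error only. They compare 2 libraries, not conditions. A gene's uniqueness is given as the percent of the 50-base stretches of its longest transcript that another annotated gene also holds, called shared stretches.

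Glucose oxidase turns glucose and oxygen into gluconolactone and hydrogen peroxide, so a culture given the enzyme is exposed to hydrogen peroxide made in its medium. As textbook background, cells meet such oxidants with the transcription factor NRF2, which is freed when oxidants modify its partner KEAP1 and which drives genes of glutathione, thioredoxin and heme handling. A second route is the integrated stress response, in which kinases phosphorylate the initiation factor eIF2, overall protein synthesis drops, and the factor ATF4 is made and drives genes for amino acid supply. Oxidants can also halt the cell cycle, and in the endothelium they are studied for their effect on adhesion molecules, vessel tone and clotting.

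The libraries held 35969965 reads (control) and 35005089 reads (glucose oxidase) over the listed genes, with size factors of 1.03 and 0.965. All 8 endothelial markers were present in both libraries, with summed reads of 269108 in control and 173623 after glucose oxidase. The markers did not move alike. Emcn went the other way, at 5373 and 6333 reads (log2 ratio 0.33). Cdh5 and Egfl7 lay at -0.20 and -0.23, and Kdr and Tek at -1.06 and -1.14. Fewer cells of a type and less RNA per cell cannot be told apart in such bulk samples. Summed reads of the smooth muscle markers were 44 and 71 (4 of 5 listed), of pericyte markers 23 and 58 (2 of 4), of epithelial markers 1 and 5 (1 of 4) and of lymphocyte markers 6 and 9 (1 of 2), and none of 4 hemoglobin genes was listed. The leukocyte sum, 8407 and 17155, was nearly all Cd68, while Ptprc, Adgre1 and Itgam were not listed and Csf1r had 6 and 12 reads. Lyz2 of the same set went the other way, at 186 and 76 reads (log2 ratio -1.10). The fibroblast sum, 137 and 1367, was nearly all Pdgfra, while Lum and Dcn were not listed and Col1a1 had 28 and 30 reads. Lyve1, of the lymphatic endothelial markers, had 11828 and 22417 reads, with Prox1 and Pdpn not listed. Of the adipocyte markers Fabp4 had 1572 and 679 reads and Plin1 had 8 and 0, with Adipoq not listed. The part of any other cell type in the results was not tested. The glucose oxidase library stood apart on pseudogenes: processed pseudogenes took 0.718% of the control reads, 0.389% after glucose oxidase and 0.751% in the third library, and this is described at the end.

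Among the 13285 protein-coding genes, 602 were higher (4.53%) and 633 were lower (4.76%) after glucose oxidase. Together these made up 9.3% of protein-coding genes, the background against which each gene group below is to be read. The median log2 ratio was 0.04, with quartiles of -0.24 and 0.29, and 73.0% of the genes lay within 0.5 of 0. Large differences were more often upward: at a limit of 2 there were 131 higher and 86 lower genes, at 3 there were 38 and 10, and at 4 there were 13 and 3. The higher genes held 2.16% of all protein-coding reads in control and 6.47% after glucose oxidase, and the lower genes held 3.45% and 1.28%. Genes with few reads passed the limit more often, at 15.6% of the 2657 genes with the lowest mean normalized count (up to 100.2), against 5.61% of the 2657 with the highest (3373 and above). Median transcript lengths were 2921 bases for higher, 3332 for lower and 3342 for all protein-coding genes, and median GC contents were 50.9%, 49.2% and 49.8%. For each of the 1235 genes past the limit the counting interval left out equal levels, which also held for 8811 of all protein-coding genes and therefore adds nothing to the limit.

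**Figure D1:**
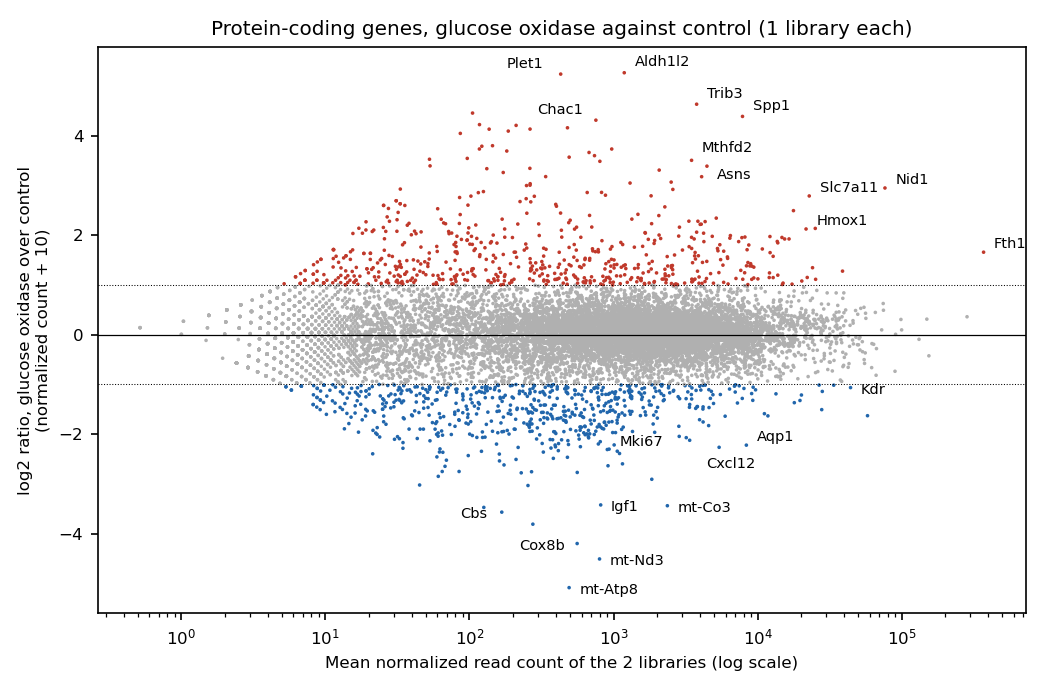
Log2 ratio of each protein-coding gene (glucose oxidase over control, normalized count plus 10) against its mean normalized read count on a log axis; red and blue points lie past the dotted limits of 1 and -1, and 21 genes are named. The 602 higher and 633 lower genes occur at every level, and the ratios of most genes lie near 0.

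The genes ranked next are the 6643 protein-coding genes with a mean normalized count at or above the median (1016); genes with fewer reads, some with larger ratios, are given with their lists below. Among the ranked genes that stood highest after glucose oxidase were enzymes of amino acid and folate metabolism, factors of the integrated stress response and genes of glutathione handling. Aldh1l2, the mitochondrial 10-formyltetrahydrofolate dehydrogenase, had 52 control reads against 2244 after glucose oxidase, 46.1-fold higher (95% interval 35.1 to 62.0), with 16.8% of its stretches shared. Trib3, a pseudokinase that feeds back on ATF4 signaling, had 291 and 7016 reads, 25.8-fold higher (22.9 to 29.1). Spp1, which encodes the secreted matrix protein and cytokine osteopontin, had 727 and 14489 reads, 21.3-fold higher. Behind these stood Mthfd2 (a mitochondrial folate enzyme; 571 and 6187 reads), Asns (asparagine synthetase; 790 and 7854), Scg2 (secretogranin II; 383 and 3648), Atf5 (830 and 7118), Nupr1 (543 and 4343) and Steap1 (a metalloreductase family member; 281 and 2252). Nid1, a basement membrane glycoprotein, had 18051 control reads against 130867 after glucose oxidase, 7.75-fold higher (7.63 to 7.87). The rest of the 15 highest were Slc40a1 (the iron exporter ferroportin; 612 and 4411 reads), Gsta4 (a glutathione transferase for lipid aldehydes; 466 and 3084), Slc7a11 (the cystine importer; 5932 and 38521), Gadd45a (667 and 3761, with 16.1% of stretches shared) and Nptx1 (5499 and 29097). Among the 15, the lowest log2 ratio was 2.50 for Nptx1, and the next of the ranked genes was Ddit3 at 2.42.

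At the other end of the same 6643 genes stood, among others, mitochondrially encoded genes and mitotic genes. The transcripts mt-Co3 (4478 and 377 reads), mt-Co2 (3366 and 411) and mt-Atp6 (2052 and 309) were lowest of those ranked, and 99.5% to 100% of their stretches are shared with other annotated genes. Il13ra2, a decoy receptor for interleukin 13, had 1915 control reads against 334 after glucose oxidase, 5.36-fold lower (95% interval 4.77 to 6.04). Cxcl12, a chemokine that retains leukocytes and stem cells, had 9243 and 1791 reads, 4.83-fold lower (4.59 to 5.08). Aqp1, a water channel of continuous endothelium, had 14207 and 2842 reads, 4.68-fold lower (4.49 to 4.87). The mitotic genes among the 15 were Kif11 (1838 and 331 reads), Mki67 (5338 and 1181), Prc1 (1704 and 400) and Cdc20 (1861 and 458, with 11.6% shared). The others were Trp53i11 (5676 and 1211), Aldh1a7 (4754 and 1070), Mctp2 (3178 and 755), Saa3 (an acute phase apolipoprotein; 2226 and 533) and Dapk2 (1896 and 482). Dapk2 closed the 15 at a log2 ratio of -1.86, and the next ranked gene was Mest at -1.84. Among ranked genes with no shared stretch, the 5 highest were Trib3, Mthfd2, Asns, Scg2 and Steap1, and the 5 lowest were Il13ra2, Cxcl12, Aqp1, Mctp2 and Dapk2.

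**Figure D2:**
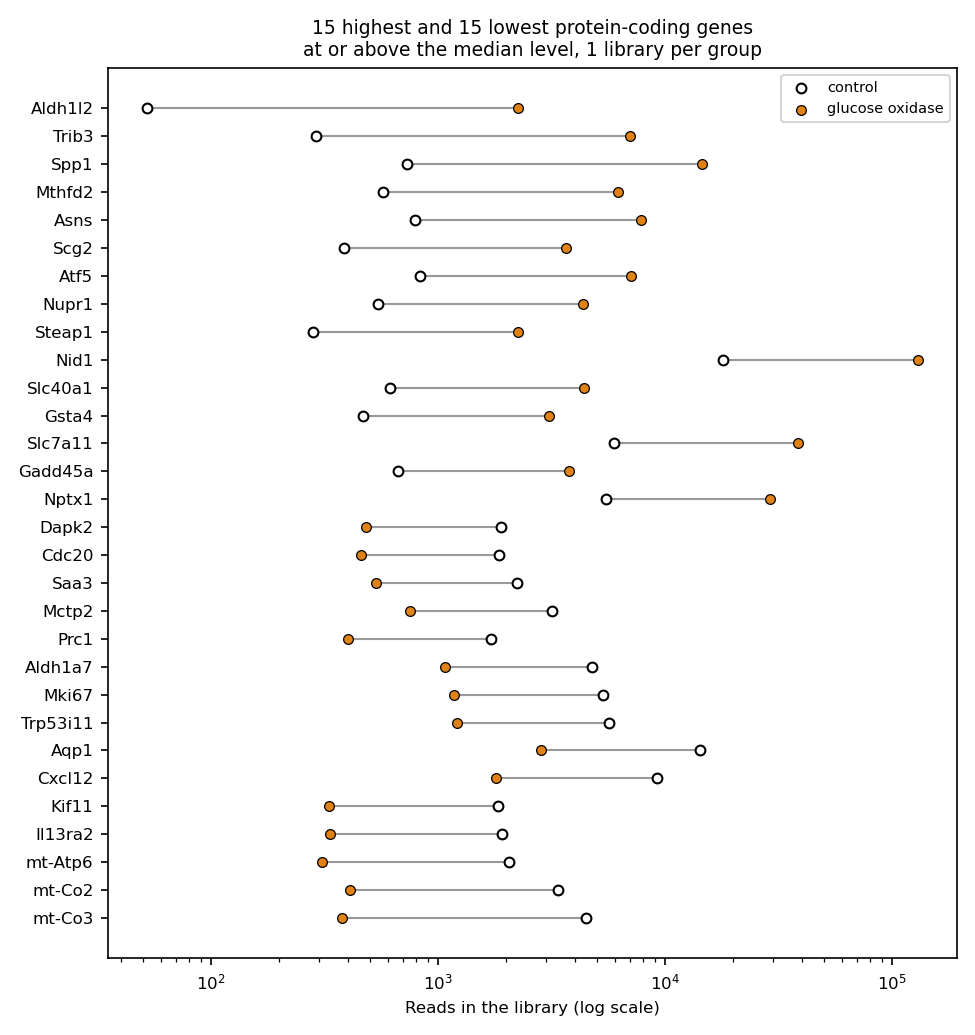
Reads in the control (open circles) and glucose oxidase (filled circles) libraries, on a log axis, for the 15 highest and 15 lowest protein-coding genes among those at or above the median mean normalized count. Differences run from 5.66-fold (Nptx1) to 46.1-fold higher (Aldh1l2) and from 3.68-fold (Dapk2) to 11.1-fold lower (mt-Co3).

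Genes were next described by function, in 34 lists of pathway and cell type genes with 5 more added after the values were seen. The factors and feedback genes of the integrated stress response were higher in 8 of 14 members and lower in none, with a median log2 ratio of 2.09 against 0.04 for all protein-coding genes. The leading factor of the pathway, Atf4, had 3288 control reads against 11946 after glucose oxidase, 3.88-fold higher. Beside Trib3, Atf5 and Nupr1, already described, Chac1 (a glutathione-degrading enzyme) had 65 and 1396 reads, 23-fold higher, and Atf3 had 107 and 667, 6.66-fold higher. Ddit3, which encodes the factor CHOP, had 472 and 2411 reads, 5.46-fold higher, and Ppp1r15a, the phosphatase subunit that restores eIF2, had 1449 and 6356, 4.69-fold higher. Ddit4, the member with the most reads and an inhibitor of mTORC1, went the other way without reaching the limit, at 38578 and 24686 reads (log2 ratio -0.55).

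Enzymes that make serine and feed one-carbon units into folate were higher in 7 of 11 members and lower in none (median 1.68). The serine synthesis enzymes Psph (658 and 2934 reads, log2 ratio 2.24), Phgdh (2672 and 9999, 2.00) and Psat1 (2497 and 8224, 1.81) were all higher; Phgdh shares 63.1% of its stretches. On the mitochondrial folate side, Aldh1l2 and Mthfd2 were joined by Shmt2 (2849 and 8570 reads, 1.68). The cytosolic counterparts, named after their values were seen, lay on the other side of 0: Shmt1 had 464 and 251 reads (-0.77), Mthfd1 had 2811 and 2425 (-0.12) and Aldh1l1 had 9 and 4 (-0.40). None of these reached the limit.

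Enzymes of asparagine, proline, cysteine and glutamate metabolism split, with 7 of 12 higher and 2 lower (median 1.19). Pycr1, the last enzyme of proline synthesis, had 93 control reads against 1219 after glucose oxidase, 14.0-fold higher. Bcat1, a branched-chain aminotransferase, had 127 and 1434 reads, 12.1-fold higher, and Asns was 10.6-fold higher. The transsulfuration pathway, which makes cysteine from homocysteine, moved in opposite directions at its 2 steps. Cth, the second enzyme, had 40 and 470 reads, 12.6-fold higher, whereas Cbs, the first, had 328 and 17, 18.0-fold lower. Glul, glutamine synthetase, had 7058 and 2854 reads, 2.31-fold lower, with 15% of its stretches shared. Aldh18a1 and Prodh, at the start of proline synthesis and of proline breakdown, had 1967 and 5312 reads and 57 and 148 reads, with log2 ratios of 1.52 and 1.32. Got1, the aspartate aminotransferase with the most reads of the list, had 3896 and 7581 (1.05).

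Amino acid transporters were higher in 7 of 12 listed members and lower in none (median 1.69, and 0.85 over members with no shared stretch), and all 12 ratios were above 0. Slc7a11, the cystine-glutamate exchanger, was 6.94-fold higher (95% interval 6.75 to 7.14) and its partner chain Slc3a2 had 7093 and 25278 reads, 3.81-fold higher. The glycine carrier Slc6a9 had 453 and 2165 reads (log2 ratio 2.33, 41.2% of stretches shared), the large neutral amino acid carrier Slc7a5 had 1165 and 5350 (2.29), the glutamine carrier Slc1a5 had 238 and 808 (1.82) and the arginine carrier Slc7a1 had 1559 and 5006 (1.77). Cytosolic aminoacyl-tRNA synthetases, which charge tRNAs with amino acids, were higher in 10 of 20 members and lower in none. Their median was 0.999, and all 20 ratios were above 0, the lowest (Farsa, 0.003) by so little that scaling to total counts puts it below 0. The synthetases for cysteine (Cars; 1462 and 5352 reads), glutamate and proline (Eprs; 6185 and 20873) and glycine (Gars; 4077 and 12509) stood highest, at log2 ratios of 1.96, 1.85 and 1.71. Mars, Lars and Nars followed at 1.48, 1.4 and 1.38. Aars, with the most reads of the list, had 8645 and 18577 (1.2, with 22.4% of stretches shared).

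Promoter sequences of these genes were read from RefSeq (GRCm38.p6), in a window from 250 bases before to 50 bases after each start, which matched 10477 of 13283 protein-coding symbols. Of these starts 7966 lay within 100 bases of the 5′ end of the deposited gene. The start used for Nupr1 lies further inside its deposited gene. The sequences are shown because members of these lists moved together and 3 of the highest genes hold the letters TGATGNAA, a core of the element bound by C/EBP-ATF dimers, on either strand. The share of all promoters that hold it was 2.28%, against 6.44% of the 466 higher genes with a promoter and 3.18% of the 472 lower genes. In the lists of stress response, amino acid and tRNA synthetase genes together, 12 of 30 higher members held it (40%), as did 2 of 22 that were not higher (9.09%). None of the 9 serine and one-carbon promoters held it. Trib3 and Atf5 are among the genes without it in this window, and Il13ra2, one of the 15 lowest genes, has it. A match is a description of the letters and not a bound site. The 250 bases before the start are printed below 5′ to 3′ on the gene's strand, with matches in capitals, for Asns (chr6:7693210-7693459, minus strand, match at -23), Nupr1 (chr7:126625471-126625720, minus strand, match at -110) and Slc7a11 (chr3:50443614-50443863, minus strand, matches at -66 and -47), positions giving the first base of a match relative to the start.
Asns: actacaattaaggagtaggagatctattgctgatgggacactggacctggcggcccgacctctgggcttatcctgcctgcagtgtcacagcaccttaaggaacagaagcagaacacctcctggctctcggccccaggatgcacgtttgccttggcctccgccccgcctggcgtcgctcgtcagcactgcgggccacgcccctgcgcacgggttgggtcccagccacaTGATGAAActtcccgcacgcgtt
Nupr1: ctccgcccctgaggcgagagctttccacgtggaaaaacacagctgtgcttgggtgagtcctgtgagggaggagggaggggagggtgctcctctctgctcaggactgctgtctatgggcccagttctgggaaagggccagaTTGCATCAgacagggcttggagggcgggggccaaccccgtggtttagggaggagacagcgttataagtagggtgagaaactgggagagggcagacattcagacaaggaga
Slc7a11: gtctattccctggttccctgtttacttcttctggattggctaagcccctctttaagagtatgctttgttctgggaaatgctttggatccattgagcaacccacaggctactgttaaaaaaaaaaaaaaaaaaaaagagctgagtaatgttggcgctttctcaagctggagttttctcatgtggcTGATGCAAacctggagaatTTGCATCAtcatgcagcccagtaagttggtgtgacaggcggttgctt

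**Figure D3:**
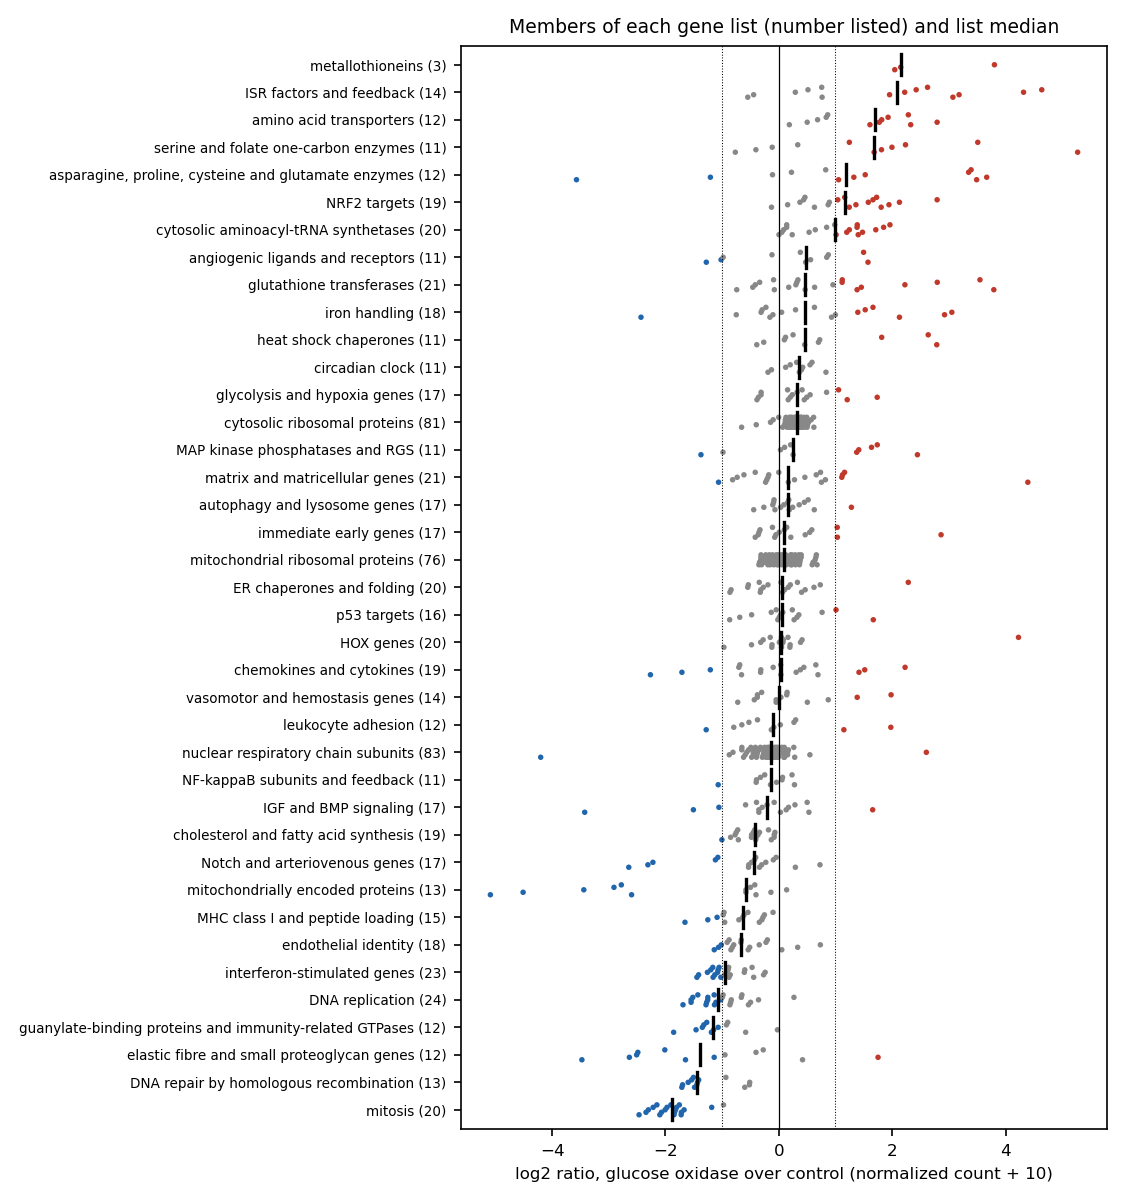
Log2 ratios (glucose oxidase over control) of the members of each gene list, with the number listed in brackets, ordered by list median (black bars); red and blue points lie past the dotted limits of 1 and -1. Metallothioneins, a list added after the values were seen, stand at the top with a median of 2.15. Stress response and amino acid lists follow, with medians up to 2.09 among the first 34 lists, and mitosis stands at the bottom at -1.88.

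Targets of NRF2 were higher in 11 of 19 members and lower in none, with a median of 1.16. Hmox1, heme oxygenase, had 8325 control reads against 34083 after glucose oxidase, 4.38-fold higher (95% interval 4.27 to 4.49). For glutathione, Slc7a11 supplies cystine and Gclm, the modifier subunit of the enzyme that limits glutathione synthesis, had 2727 and 9842 reads, 3.86-fold higher. Srxn1, which repairs oxidised peroxiredoxins, had 3982 and 13051 reads (log2 ratio 1.81), and Abcc1, an exporter of glutathione conjugates, had 5160 and 15994 (1.73). Fth1, the heavy chain of the iron store ferritin, had 183445 and 542914 reads, 3.16-fold higher (3.15 to 3.18). The letters TGACNNNGC, a core of the antioxidant response element, were held by 5 of 15 NRF2 target promoters (33.3%), 15.7% of higher genes and 14.5% of all promoters. Other lists held them too, with 3 of 8 amino acid transporter promoters (37.5%) and 4 of 14 of the integrated stress response (28.6%). Among tRNA synthetases it was 2 of 12 (16.7%).

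Lists added after the values were seen covered genes next to this pathway. Of 21 glutathione transferases, 8 were higher and none lower (median 0.46). Gsta1 (8 and 228 reads) and Gsta2 (7 and 180) had the largest ratios, 3.79 and 3.55, but share 89.7% and 64.2% of their stretches, while Gsta4 and Gsta3 (1471 and 6469 reads, 2.23) share 0% and 0.437%. All 3 metallothioneins, small proteins that bind zinc and copper, were higher: Mt1 had 663 and 2591 reads, Mt3 had 31 and 162, and Mt2 had 11 and 269, with 45.5% of its stretches shared. Of 18 iron genes 6 were higher and 1 lower. Beside Slc40a1, Steap1, Hmox1 and Fth1, the higher ones were Steap3 (23 and 80 reads, 1.52) and Blvrb, a biliverdin reductase (1453 and 3588, 1.39). The lower one was Flvcr2 (178 and 23 reads, -2.43), a transporter of the choline and heme carrier family.

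Other stress programs differed in how many members passed the limit. Of 20 chaperones and folding factors of the endoplasmic reticulum, 1 was higher (5.00%) and none lower, with a median of 0.05. The higher one was Ero1l, an oxidase that forms disulfides, at 1347 and 6176 reads (log2 ratio 2.28). Canx, with the most reads, had 27793 and 27212. Of 11 heat shock chaperones 3 were higher (27.3%), each a gene that shares more than 50% of its stretches: Hspa1a (66 and 483 reads), Hspa1b (523 and 1746) and Hspb1. The last had 2 and 62 reads, a ratio of 33.1 with a counting interval from 8.80 to 280. Hsp90ab1, with the most reads, had 99596 and 99704. Of 17 immediate early genes 3 were higher (17.6%), Fosl1 (156 and 1122 reads, 2.86, with 58.9% shared), Fosl2 (2783 and 5339, 1.03) and Ier3 (1709 and 3277, 1.03), and Klf2, with the most reads, had 10015 and 10850.

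Feedback regulators of MAP kinase and G-protein signaling were higher in 5 of 11 listed members and lower in 1. The phosphatases Dusp4 (1655 and 5184 reads, log2 ratio 1.74), Dusp10 (36 and 125, 1.64), Dusp5 (273 and 695, 1.41, with 20.5% shared) and Dusp2 (25 and 76, 1.37) were higher. The 2 regulators of G-protein signaling past the limit went opposite ways, with Rgs16 at 73 and 415 reads (2.45) and Rgs2 at 10796 and 3891 (-1.37). Targets of p53 had a median of 0.05, against 0.04 for all protein-coding genes. Of the 16 targets 2 were higher (12.5%, against 4.53% of protein-coding genes) and none lower. Those higher were Gdf15, a stress cytokine, at 35 and 125 reads (1.67), and Mdm2, the ligase that degrades p53, at 5858 and 11043 (1.01). Cdkn1a, the cell cycle inhibitor p21, had 17707 and 21162 (0.35).

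Genes of cell division were lower. Of 20 mitotic genes 19 were lower and none higher, with a median of -1.88, the lowest of the first 34 lists. Ccnb2, cyclin B2, had 844 control reads against 135 after glucose oxidase, 5.85-fold lower. The kinesin Kif11 was 5.19-fold lower, the kinetochore protein Cenpf had 1606 and 297 reads and was 5.06-fold lower, and cyclin A2 (Ccna2; 15.9% of stretches shared) had 1723 and 339 and was 4.75-fold lower. Plk1, a mitotic kinase (10.9% shared), had 1370 and 281 reads, and the checkpoint kinase Bub1 had 973 and 205, with log2 ratios of -2.15 and -2.10. Top2a, with the most reads, had 6671 and 1842 (-1.75). The 1 member inside the limit was Cdk1, at 2190 and 1037 reads (-0.98).

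Of 24 genes of DNA replication 13 were lower and none higher (median -1.07). The licensing factor Cdc6 had 644 and 180 reads (log2 ratio -1.69), the helicase subunit Mcm5 had 3041 and 967 (-1.55), thymidine kinase Tk1 had 1519 and 490 (-1.52) and the polymerase subunit Pole had 1304 and 447 (-1.43). The cyclin Ccne2 had 398 and 121 reads (-1.55), with 17.4% of its stretches shared, and the flap endonuclease Fen1 had 244 and 88 (-1.28), with 81.2% shared. Rrm1, with the most reads, stayed inside the limit at 7080 and 3674 (-0.85). Genes of homologous recombination were lower in 9 of 13 members and higher in none (median -1.45, and -0.93 over members with no shared stretch). The helicase Brip1 had 496 and 135 reads (-1.71), Fanci had 429 and 117 (-1.70, with 11.6% shared), the nuclease Exo1 had 306 and 88 (-1.60), Brca1 had 715 and 224 (-1.54) and Rad51ap1 had 438 and 138 (-1.51). Brca2, with the most reads, had 1004 and 655 (-0.51). Against this, Rad54b, a recombination gene outside the list and named after its values were seen, had 131 control reads against 1754 after glucose oxidase, 14.3-fold higher (95% interval 11.98 to 17.2), with no shared stretch.

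In the promoter table, the letters TTTGAA, a core of the CHR element of G2 and M phase genes, stood in 12 of 16 mitotic promoters (75%), 24.4% of lower genes, 10.9% of higher genes and 12% of all promoters. The letters CCAAT stood in 15 of 16 mitotic promoters, 45.6% of lower genes and 39.0% of all, and the E2F letters TTTCCCGC in 4 of 18 replication promoters, 1.91% of lower genes and 2.07% of all. CCAAT is not particular to cell cycle lists, and stood in 7 of 9 serine and one-carbon promoters and 34.3% of higher genes. The promoter of Mki67 (chr7:135716380-135716629, minus strand), the proliferation marker Ki-67, is shown because it holds both TTTGAA and CCAAT. They stand on 5 positions, TTTGAA at -116 and -98 and CCAAT or its complement at -188, -166 and -141, in capitals below.
Mki67: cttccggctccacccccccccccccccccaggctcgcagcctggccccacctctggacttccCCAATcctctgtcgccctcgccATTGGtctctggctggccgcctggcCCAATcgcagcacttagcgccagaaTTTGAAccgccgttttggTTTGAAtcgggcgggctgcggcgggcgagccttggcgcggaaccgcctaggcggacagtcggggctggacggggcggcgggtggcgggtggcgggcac

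Interferon-stimulated genes were lower in 11 of 23 listed members and higher in none, with a median of -0.96, and all 23 ratios were below 0. Isg15, a ubiquitin-like modifier, had 1444 control reads against 490 after glucose oxidase, 2.76-fold lower. Rtp4 had 2745 and 957 reads (2.68-fold lower, with 13.6% of stretches shared), Oasl2 had 1504 and 582 (2.42-fold), Usp18, which removes Isg15 from proteins, had 1276 and 514 (2.32-fold), Oas2 had 684 and 280 (2.29-fold) and Cmpk2 had 445 and 181 (2.30-fold). Bst2, a tether of budding virus with the most reads of the list, had 25480 and 12899 (log2 ratio -0.89). Guanylate-binding proteins and immunity-related GTPases, which act against microbes inside cells, were lower in 8 of 12 members and higher in none (median -1.17). Gbp9 had 29025 and 10848 reads, 2.50-fold lower, Gbp4 had 5098 and 1727 (2.76-fold, with 12.8% shared) and Gbp3 had 1378 and 500 (2.58-fold). Gbp6, at 1323 and 335 reads, shares 59.7% of its stretches. A core of the interferon-stimulated response element, TTTC and again TTTC with any 2 letters between, stood in 11 of 19 promoters of interferon-stimulated genes (57.9%), 6.14% of lower genes and 3.04% of all.

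Genes of MHC class I presentation, which displays peptides to cytotoxic T cells, were lower in 3 of 15 members and higher in none (median -0.64). H2-Q4 had 1693 and 496 reads (log2 ratio -1.66) and H2-Q7 had 139 and 56 (-1.09), but they share 36.9% and 28.5% of their stretches with related genes, so the split of reads among them is uncertain. Psmb8, a subunit of the immunoproteasome, had 292 and 109 reads (-1.25). H2-D1, with the most reads, had 20264 and 17665 (-0.10, with 14.3% shared).

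Inflammatory genes did not move as 1 group. Of 19 chemokines and cytokines 3 were higher and 3 lower, with a median of 0.03. Those higher were Il6 (72 and 351 reads, log2 ratio 2.23), Csf2 (6 and 34, 1.52) and the neutrophil chemokine Cxcl2 (589 and 1485, 1.41). Those lower were Cxcl12, the membrane-bound chemokine Cx3cl1 (6258 and 1783 reads, -1.71) and Cxcl5, which had 16 control reads against 1 after glucose oxidase. The Cxcl5 count gives a ratio of 15-fold lower with a counting interval from 2.33 to 628. Cxcl1, with the most reads, had 7425 and 7121. Among 11 listed NF-kappaB subunits and feedback genes, Nfkbie, an inhibitor of the factor, was lower at 671 and 294 reads (-1.07) and none was higher; Nfkbiz, with the most reads, had 6240 and 5677.

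Of 12 leukocyte adhesion genes 2 were higher and 1 lower. The selectins, which capture rolling leukocytes, were the higher ones: Selp had 5088 and 18758 reads (log2 ratio 1.98, with 14.3% of stretches shared) and Sele had 854 and 1782 (1.15). Icam2, an adhesion molecule of resting endothelium, had 11448 and 4400 (-1.28). Pecam1, with the most reads of the list, had 37351 and 26919 (-0.38).

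Genes that define the endothelium were listed with many reads and mostly below control. Of 18 endothelial identity genes 3 were lower and none higher, the median was -0.67, and 15 ratios were below 0. Tek, the angiopoietin receptor, had 6786 and 2877 reads (2.21-fold lower), Kdr, the main VEGF receptor, had 61640 and 27584 (2.09-fold lower), and Vwf, von Willebrand factor, had 46607 and 21567 (2.02-fold lower). Tie1 had 78258 and 46273 reads (log2 ratio -0.66), and Cdh5 had 55360 and 45034 (-0.20). The 3 ratios above 0 were those of Nos3, Emcn (0.33) and Robo4 (0.05). Nos3 had 30246 and 47041 reads (0.73, with 20.3% of stretches shared). Notch and arteriovenous genes, which set arterial or venous fate, were lower in 5 of 17 listed members and higher in none (median -0.43). Aplnr, the apelin receptor, had 128 and 11 reads (10.9-fold lower), and the gap junction gene Gja4 had 1562 and 287 (5.09-fold lower). The others past the limit were Aqp1, Gja5 (3701 and 1589 reads, 2.18-fold lower, with 24.2% of stretches shared) and the Notch ligand Dll4 (390 and 168, 2.17-fold lower). Ephb4, a venous receptor with the most reads of the list, had 33706 and 21835 (-0.53).

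The 14 vasomotor and hemostasis genes had a median of -0.005, and none was lower past the limit. Ptgs2, the inducible cyclooxygenase, had 1356 and 3324 reads, 2.62-fold higher. Thbd, thrombomodulin, had 33844 and 24374 (log2 ratio -0.38). Angiogenic ligands and receptors were split, with 2 of 11 listed higher and 2 lower. Vegfa had 1219 and 3413 reads (1.57) and Hbegf had 297 and 801 (1.5), whereas Vegfc, the lymphatic growth factor, had 77 and 24 (-1.28) and Apln, the ligand of Aplnr, had 5772 and 2661 (-1.02). Flt4, with the most reads, had 7071 and 6084 (-0.12).

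Growth factor genes of the IGF and BMP families were lower in 3 of 17 listed members and higher in 1. Igf1 had 1547 control reads against 126 after glucose oxidase, 11.5-fold lower. Its binding protein Igfbp3 had 42545 and 13997 reads, 2.84-fold lower, while Igfbp5 had 1826 and 5403, 3.16-fold higher. Igf2 had 89 and 35 reads (2.38-fold lower), with 75.9% of its stretches shared, and Igfbp4, with the most reads, had 43886 and 59339 (log2 ratio 0.53). Matrix and matricellular genes were higher in 4 of 21 listed members and lower in 1. Beside Spp1, these were its receptor Cd44 (999 and 2030 reads, 1.11), Ccn2 (344 and 731, 1.16) and the laminin chain Lamb1 (6517 and 13302, 1.12), with Thbs1 lower (677 and 298, -1.06). Timp2, with the most reads, had 115867 and 65114 (-0.74).

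Elastic fibre and small proteoglycan genes, a list added after the values were seen, were lower in 7 of 12 listed members and higher in 1 (median -1.39, and -0.90 with the authors' deposited log2 values). Eln, the elastin gene, had 1636 control reads against 238 after glucose oxidase, 6.43-fold lower. Nepn had 247 and 12 reads (19.3-fold lower), Ecm2 had 377 and 54 (6.53-fold), Prelp had 677 and 105 (6.03-fold) and Fbln2 had 1057 and 238 (4.15-fold). Fbln5, with the most reads, had 39928 and 16936 (2.21-fold lower). Emilin2 went the other way, at 55 and 196 reads (3.81-fold higher).

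Metabolic and housekeeping lists were mostly inside the limit. All 19 listed cholesterol and fatty acid synthesis genes had ratios below 0 (median -0.43). Of 17 glycolysis and hypoxia genes 3 were higher: the glucose carrier Slc2a1 (2504 and 7825 reads, 1.74), Pfkp (742 and 1615, 1.21) and Hk2 (832 and 1627, 1.05). Of 17 autophagy and lysosome genes 1 was higher, the cargo receptor Sqstm1, at 23377 and 53136 reads (1.28, with 20.4% shared). None of 11 listed circadian clock genes passed the limit. The same count of 0 was found for 81 cytosolic ribosomal protein genes, with a median of 0.31 and 76 ratios above 0, and for 76 mitochondrial ribosomal protein genes, with a median of 0.09. Of 20 HOX genes 1 was higher, Hoxb9. It had 3 control reads against 224 after glucose oxidase, a ratio of 79.8 with a counting interval from 26.96 to 390, while Hoxb7, with the most reads, had 2883 and 2159.

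Of the 83 nuclear genes for respiratory chain subunits, 81 lay inside the limit, and the other 2 are tissue-specific subunits of cytochrome c oxidase. Cox8b had 1104 control reads against 47 after glucose oxidase, 22-fold lower (95% interval 16.4 to 30.1). Cox6a2 had 0 and 49 reads, at least 17.5-fold higher than the level of 3 reads taken as the floor. The mitochondrial genome itself encodes 13 chain subunits, 12 of which had ratios below 0 and 6 of which were lower past the limit (median -0.58). The 6 are mt-Co2, mt-Atp8, mt-Atp6, mt-Co3, mt-Nd3 and mt-Nd4l, which lie next to each other between mt-Co1 and mt-Nd4. Among them mt-Nd3 had 1591 and 56 reads, mt-Nd4l had 420 and 49, and mt-Atp8 had 996 and 18. Of these 6 genes 5 share 98.0% to 100% of their stretches with another annotated gene, and mt-Atp8 shares none, though its end overlaps mt-Atp6. In the third library their reads lay between the others, at 709 for mt-Nd3, 470 for mt-Atp8 and 2695 for mt-Co3. The 7 other genes, which share from 0% to 62.2% of their stretches, lay inside the limit. With at most 10% of stretches shared, mt-Cytb had 66367 and 43872 reads (log2 ratio -0.50), mt-Nd1 had 57650 and 48973 (-0.14) and mt-Nd2 had 36748 and 37828 (0.14). With more shared, mt-Co1, which has the most reads, had 182605 and 127332 (-0.42, with 51.1% shared) and mt-Nd4 had 25102 and 17756 (-0.40, with 62.2%). Both mitochondrial ribosomal RNAs were higher, mt-Rnr1 at 10298 and 33521 reads and mt-Rnr2 at 22138 and 67743.

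**Figure D4:**
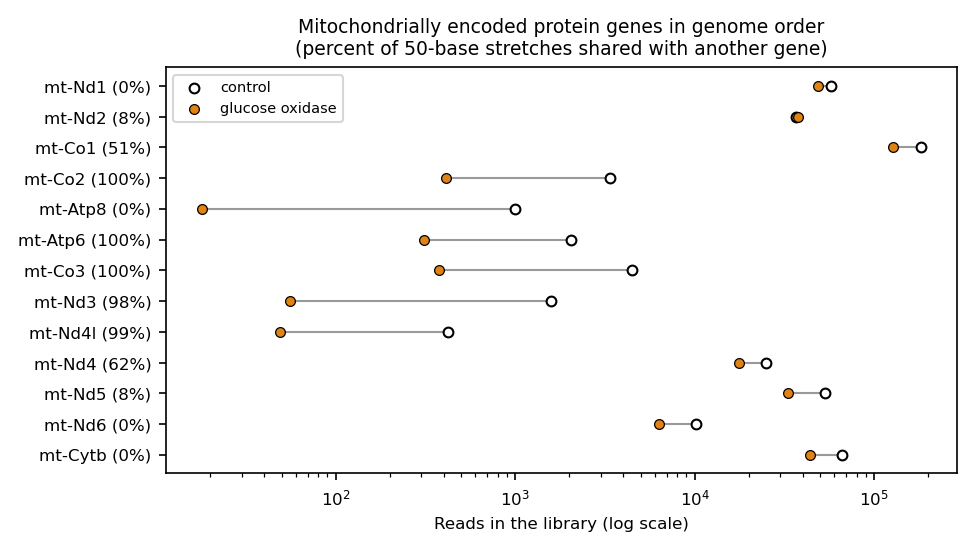
Reads of the 13 mitochondrially encoded protein genes in the control (open) and glucose oxidase (filled) libraries on a log axis, in their order on the genome, with the percent of shared 50-base stretches. The 6 genes from mt-Co2 to mt-Nd4l lie far below control, and 5 of them share 98% to 100% of their stretches.

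Processed pseudogenes behaved unlike protein-coding genes in this comparison. Of 2110 processed pseudogenes, 841 were lower (39.9%) and 8 were higher (0.379%), the median log2 ratio was -0.82 and 88.8% lay below 0. Their summed reads were 258115 in control, 136179 after glucose oxidase and 302170 in the third library. The share that was lower differed between classes of shared stretches and was highest in the middle ones. Of 91 processed pseudogenes with none shared 5 were lower (5.49%), a share close to the 4.62% of protein-coding genes with none. It was 27.5% with up to 10% shared, 47.7% of 946 with 10% to 50% shared, 43.2% of 628 with 50% to 90% and 23.8% of 206 above 90%. Protein-coding genes above 90% had 18 of 114 lower (15.8%), against 2 higher. A protein-coding partner, the gene sharing most stretches with the pseudogene, was found for 1939 of them. For the 530 whose partner is a ribosomal protein gene, the median was -1.09 and 284 were lower, whereas the 76 partners had a median of 0.31 with none past the limit. How shared reads were assigned in each library is not given in the sources used here, and its part in these counts was not tested.

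Of the 5 lowest pseudogenes, 4 are given here, each a copy of an abundant housekeeping gene. Gm4600 (chromosome 16, 37696770 to 37697340) had 676 control reads against 5 after glucose oxidase and 908 in the third library, while its partner Rpl9 had 25083 and 29925. Gm7392, a copy of Rps26, had 740, 27 and 1021 reads in the same order, with 17684 and 20723 for Rps26. The others were Gm13215 (233 and 2, partner Rps27a) and Gm6375 (266 and 4, partner Actg1). In all 4 the third library had more reads than the control, though for Gm6375 only 285 against 266. These reads are not scaled, and the third library was larger in total (40212212 reads against 35969965 in control). The 3 highest were Gm18609 (43 and 139 reads), Gm13836 (0 and 13) and Gm18234 (1 and 15). To show how alike a copy and its partner are, 60 bases from 2 such pairs follow, taken from the GENCODE M21 transcripts, with differing bases in capitals. There are 3 differing bases in each pair.
Gm4600: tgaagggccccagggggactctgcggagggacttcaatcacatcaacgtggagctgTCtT
Rpl9: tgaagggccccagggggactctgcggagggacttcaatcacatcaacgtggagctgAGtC
Gm7392: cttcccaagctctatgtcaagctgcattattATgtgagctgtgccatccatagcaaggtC
Rps26: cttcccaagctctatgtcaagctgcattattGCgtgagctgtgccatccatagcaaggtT

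**Figure D5:**
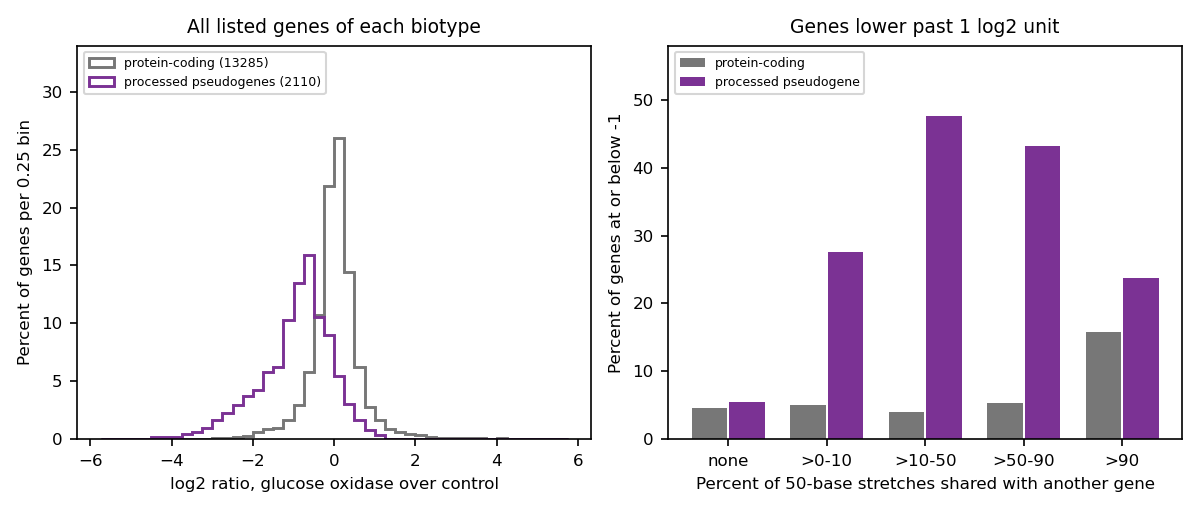
Left, percent of protein-coding genes (grey) and processed pseudogenes (purple) per bin of log2 ratio, glucose oxidase over control; right, percent of each biotype lower past the limit, by the percent of shared 50-base stretches. Protein-coding genes centre near 0 and processed pseudogenes at -0.82, and the share of lower pseudogenes runs from 5.49% with no shared stretch to 47.7% at 10% to 50%.

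A few protein-coding genes were near absence in control and present after glucose oxidase. With at most 3 reads in control and at least 100 normalized counts after glucose oxidase there were 5 genes, and there was none the other way round. Beside Hoxb9, Car6, a secreted carbonic anhydrase, had 0 and 203 reads, at least 72.3-fold higher than the floor of 3 reads, and Gsdma, a pore-forming gasdermin, had 0 and 102, at least 36.3-fold higher. Mamdc2 had 1 and 102 reads, a ratio of 109 with a counting interval from 19.1 to 4349. Gm3776, with 1 and 166 reads, shares 92.5% of its stretches.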

How the data were processed

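RNA of 1 control and 1 glucose oxidase library was compared. Stranded libraries were made from polyadenylated RNA, per the labels' protocols, and STAR, featureCounts and the build mm10 are named in the submitters' processing notes, without versions or settings. The deposited files held read counts per gene for the control library and for the library given glucose oxidase plus ethyl-2-hydroxybenzylamine and a log2 difference of glucose oxidase against control, without a header. Glucose oxidase counts were derived from these log2 differences, with the control counts, by inverting a variance-stabilizing transformation. Of 18275 genes matched by symbol, 100% came out within 0.01 of a whole read (3.31% when 1 read was added to control), and 12 more were placed by whole reads. The same step recovered 100% of counts in simulated data of this comparison. Those data were made with the same transformation, so they check the inversion and cannot show which transformation the submitters used. Gene positions matched GENCODE M21 for 17878 of 17878 IDs with the same version, so the build is GRCm38.

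Median-of-ratios size factors came from all 3 libraries. With 1 library per group no count model was fitted. Named genes were the 15 highest and 15 lowest by log2 ratio among protein-coding genes with a mean normalized count at or above the median (1016), the 5 highest and 5 lowest with no shared stretch, from each list at most 6 members past the limit, at most 3 against its majority and the one with the most reads, and the 5 lowest and 3 highest processed pseudogenes. The text gives a part of these, some items are not reported here, and the genes just outside, those of the gained set and other exceptions were chosen after their values were seen. Members and lists were chosen with earlier results of these data known. Alternatives covered scaling, the pseudocount, the limit, low counts and shared stretches. Python 3.11.15, numpy 2.4.6, pandas 2.3.3 and scipy 1.17.1 were used.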

Additional observations from a re-analysis of the deposited data

How the results depend on the processing

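The counts of higher protein-coding genes, lower protein-coding genes and lower processed pseudogenes (602, 633 and 841) stayed within 1.5 times under scaling to total counts (554, 680 and 868), the other 2 scalings and a mean normalized count of 10 or more. They depended on the pseudocount and the limit: 911, 981 and 1422 with a pseudocount of 1, 386, 417 and 301 with 50, 261, 276 and 169 with the authors' deposited log2 values, 1801, 1792 and 1461 at a limit of 0.5, and 131, 86 and 279 at a limit of 2. Over genes with no shared stretch they were 322, 297 and 5, from 6423 protein-coding genes and 91 pseudogenes. With at most 10% of stretches shared, an alternative chosen after seeing the data, 70 of 327 pseudogenes were lower. In the same setting 511 of 10742 protein-coding genes were lower. The 30 highest and lowest genes kept their sign and stayed past 1 in all 247 values under these alternatives. This was largely set in advance, because the genes were picked for large ratios. The alternatives on low counts and shared stretches also only drop genes and leave the ratio of a kept gene as it was. List medians changed sign in 11 of 351 values, in 7 lists with medians between -1 and 1 (endoplasmic reticulum chaperones, p53 targets, chemokines, vasomotor genes, immediate early genes, HOX genes, and glycolysis and hypoxia, which went from 0.32 to -0.31 over genes with no shared stretch). Of 99 values for lists with medians past 1, 9 fell inside 1. Over genes with no shared stretch these were amino acid transporters (0.85), DNA replication (-0.997), homologous recombination (-0.93) and elastic fibre genes (-0.95). With the authors' deposited log2 values they were asparagine and related enzymes (0.83), DNA replication (-0.87), homologous recombination (-0.91) and elastic fibre genes (-0.90), and with a pseudocount of 50 the asparagine list (0.998). No paired analysis was possible because each group has 1 library. Depth limits genes with few reads, such as Csf1r at 6 and 12.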

Other observations

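Genes outside the lists, chosen after their values were seen, add to the picture of the lower and higher genes. C3, the central complement protein, had 90341 control reads against 27315 after glucose oxidase, 3.09-fold lower (95% interval 3.05 to 3.14). Sgk1, a kinase induced by glucocorticoids, had 18407 and 5547 reads (log2 ratio -1.63), the fatty acid receptor Cd36 had 2964 and 897 (-1.62) and the pattern receptor Tlr2 had 2403 and 721 (-1.63). Nox1, a catalytic subunit of NADPH oxidase that makes superoxide, had 1016 and 131 reads (-2.77), with 13.9% of its stretches shared. On the other side, Prdx6, a peroxiredoxin that reduces phospholipid hydroperoxides, had 9585 and 39555 reads, 4.41-fold higher (4.31 to 4.51). Eif4ebp1, an inhibitor of cap-dependent translation, had 1744 and 8340 reads (2.35), and the chromatin protein Hmga2 had 6228 and 22664 (1.96).

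Several higher genes had few reads in control. Plet1 had 13 control reads against 818 after glucose oxidase, 67.3-fold higher (95% interval 39.1 to 127), with 10.98% of its stretches shared. Pdgfra, a growth factor receptor of mesenchymal cells, had 107 and 1325 reads (log2 ratio 3.60), the immunoglobulin-like receptor gene Lilr4b had 43 and 885 (4.16, with 20.2% shared), the cytokine subunit Il12b had 8 and 219 (3.74) and the collagenase Mmp13 had 18 and 334 (3.70). The imprinted noncoding RNA Peg13 had 13581 and 5497 reads (-1.21). Of 1872 long noncoding RNAs 100 were higher and 43 lower, with a median of 0.08. For protein-coding genes the counts were 602 and 633 of 13285 (4.53% and 4.76%).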
